A study of Homo sapiens with 9 samples.

Results

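The box C/D small nucleolar RNAs (snoRNAs) of U2OS nuclei were followed after depletion of dyskerin or GAR1. They were taken as all genes whose annotated symbol is SNORD followed by a digit, leaving out the SNORD3 genes that end in a letter, SNORD13 and SNORD118. This gave 301 of the 58425 genes in the tables, and 273 of them lay inside a host gene on the same strand, 270 of these within an intron of at least 1 host transcript, while no host was found for 28. U2OS is a human osteosarcoma line. RNA was taken 48 hours after transfection with siRNA at 15 nM, either siDyskerin (against dyskerin, encoded by DKC1), siGAR1 (against GAR1) or siControl, with 3 biological replicates of each. Nuclear RNA was depleted of ribosomal RNA and sequenced as paired ends, so the comparison asks whether losing either protein of the H/ACA complex moved the other large class of snoRNAs. The p-values below measure the spread between these cultures of 1 cell line.

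Box C/D snoRNAs are short nuclear RNAs that carry a C box near the 5′ end and a D box near the 3′ end. In human cells most are cut out of the introns of host genes after splicing, and they assemble with fibrillarin, NOP56, NOP58 and SNU13. Most guide 2′-O-methylation of ribosomal RNA or small nuclear RNA by base pairing, while others have no known target. Dyskerin and GAR1 belong to the other class of particle, in which H/ACA snoRNAs (SNORA genes) guide pseudouridylation.

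The sequences of the 3 SNORD genes with the most reads, of a trio that share a host, and of SNORD94 and SNORD83B, which had the highest estimate after siGAR1 and the lowest after siDyskerin, show what was counted. They are given 5′ to 3′ as DNA letters from the GENCODE 44 transcripts, with the C box (TGATGA within the first 20 bases) and the D box (CTGA within the last 15 bases) of the RNA strand in capitals.
SNORD17: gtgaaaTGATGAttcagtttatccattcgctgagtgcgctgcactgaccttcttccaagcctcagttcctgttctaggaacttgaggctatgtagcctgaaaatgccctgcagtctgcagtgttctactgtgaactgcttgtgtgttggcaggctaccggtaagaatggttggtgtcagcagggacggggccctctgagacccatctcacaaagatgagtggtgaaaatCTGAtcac
SNORD10: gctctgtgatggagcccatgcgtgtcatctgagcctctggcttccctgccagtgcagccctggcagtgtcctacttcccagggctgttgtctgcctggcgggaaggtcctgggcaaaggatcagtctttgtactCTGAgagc
SNORD97: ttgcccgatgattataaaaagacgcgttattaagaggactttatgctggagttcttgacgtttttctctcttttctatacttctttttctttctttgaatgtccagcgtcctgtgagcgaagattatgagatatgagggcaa
SNORD12: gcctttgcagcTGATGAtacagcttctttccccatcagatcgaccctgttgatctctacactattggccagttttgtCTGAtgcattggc
SNORD12B: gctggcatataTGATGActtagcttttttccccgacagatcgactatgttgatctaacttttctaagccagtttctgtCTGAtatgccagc
SNORD12C: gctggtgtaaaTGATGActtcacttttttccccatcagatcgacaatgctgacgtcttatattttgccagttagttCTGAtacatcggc
SNORD94: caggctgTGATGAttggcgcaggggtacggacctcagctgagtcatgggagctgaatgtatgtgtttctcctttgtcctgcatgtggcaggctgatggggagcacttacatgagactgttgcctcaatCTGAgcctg
SNORD83B: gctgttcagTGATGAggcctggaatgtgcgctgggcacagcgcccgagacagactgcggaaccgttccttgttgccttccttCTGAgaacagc
SNORD17 is 237 nt long and lies at chr20:17962710-17962946 on the minus strand in an intron of SNX5 (GRCh38). SNORD10 lies at chr17:7576811-7576952 on the plus strand within EIF4A1, and SNORD97 at chr11:10801467-10801608 on the minus strand within EIF4G2. SNORD12C (chr20:49278940-49279028), SNORD12B (chr20:49280319-49280409) and SNORD12 (chr20:49280683-49280772) lie one after another on the plus strand within the lncRNA ZFAS1. SNORD12 and SNORD12C shared a run of 18 bases, TTTCCCCATCAGATCGAC. SNORD94 lies at chr2:86135870-86136006 on the plus strand within PTCD3, and SNORD83B at chr22:39313819-39313911 on the minus strand within RPL3.

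Across all 301 members the C box letters were found in 205 (68.1%), the D box letters in 265 (88.0%) and both in 194 (64.5%). Among 5437 other annotated small RNA transcripts of 60 to 250 nt, both were found in 0.368%. A member without these exact letters, such as SNORD97, was counted all the same.

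Few of the members were well covered. No library held a read of 147 members, 154 had at least 1 read, 44 had reads in all 9 libraries, and 23 passed the count filter and could be tested. These 23 held 9564 of the 11236 SNORD reads (85.1%), and SNORD17 alone held 32.2%. The filter drew on all 9 libraries, and 18 members passed it with the siDyskerin and siControl libraries alone. SNORD83B, SNORD96A, SNORD16, SNORD15A and SNORD27 passed only with the siGAR1 libraries counted. SNORD22 (ENSG00000278527.1) passed only with the siControl libraries counted. It had 18, 14 and 9 reads there, against 6, 10 and 5 in siDyskerin libraries. The median length was 95 nt for the tested members and 78 nt for the others. Of 23 members of 100 nt or more, 10 were tested, against 13 of 278 shorter ones. The mean sequenced fragment was 134 to 149 nt long, longer than most members, and a tested member had a median of 167 reads summed over all libraries. Libraries held 48838756 to 90698675 reads summed over transcripts. The 23 tested members all lay inside hosts, of which there were 16: 13 protein-coding genes, 7 of these encoding ribosomal proteins and together holding 10 members, and 3 lncRNAs (SNHG1, ZFAS1 and SNHG16) holding 7 members.

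What a SNORD read stands for has a limit here. A read was counted in every transcript it fitted: in all 1017 cases where a SNORD with reads lay within a longer transcript, the longer one had no fewer reads. Of the 23 tested members, 16 overlapped an exon of a host transcript on the same strand. In nuclear RNA, reads of a mature snoRNA and of unspliced or intron-retaining host RNA therefore cannot be told apart.

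The targeted mRNAs had the levels that the labels call for. DKC1 had 3099 ± 24.1 normalized counts in siDyskerin cells, against 21477 ± 1076 in siControl cells. GAR1 had 96.9 ± 15.9 in siGAR1 cells, against 619 ± 39.5 in siControl cells (SD, n = 3 each). SNORA genes fell to 124, 145 and 130 RPM (reads scaled to the library's matched total) in siDyskerin libraries, against 358, 337 and 387 in siControl libraries. Of the 64 SNORA genes tested, 39 were called lower by edgeR after siDyskerin (all genes: 0.531%), by the rule given below. The median log2 fold change of the 64 was -1.46.

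The SNORD total stood much closer to siControl. Together the SNORD genes took 14.7, 17.3 and 14.9 RPM in siDyskerin libraries, 27.4, 18.5 and 17.6 in siGAR1 libraries, and 17.97, 18.71 and 18.03 in siControl libraries. The siDyskerin mean was 0.858 of the siControl mean, and all siDyskerin libraries lay below all siControl libraries. The siGAR1 mean was 1.16 times the siControl mean, but only its replicate 1 lay above every siControl library, and without it the ratio was 0.991. In these bulk samples, fewer cells with a given snoRNA and less of it per cell cannot be told apart.

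**Figure D1:**
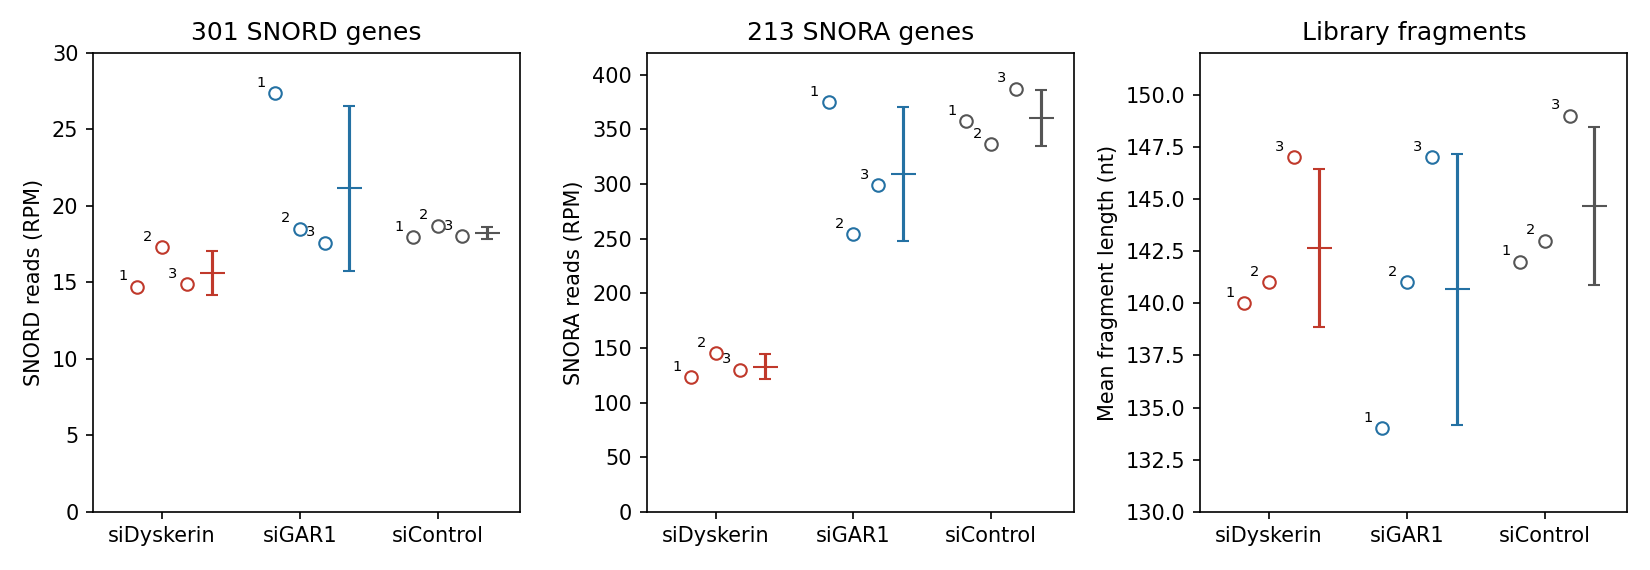
RPM (reads scaled to the matched total) of the 301 SNORD genes (left) and of the 213 SNORA genes (middle), and the mean fragment length in nt (right, axis not from 0), in each library (circles with replicate numbers) with the mean and SD of the 3 libraries of a group. SNORD totals of siDyskerin and siControl libraries lay between 14.7 and 18.7 and siGAR1 replicate 1 at 27.4, while SNORA totals were 124 to 145 in siDyskerin libraries and 254 or more in all others.

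siGAR1 replicate 1 stood apart for these short RNAs. It was the highest of the 9 libraries for 21 of the 23 tested members, and it had the shortest fragments, with a mean of 134 nt against 140 to 149 nt in the other libraries. Other short genes were high there too: for 44 tested genes of 100 nt or more but under 200 nt that are neither snoRNA nor Cajal body RNA genes, the median log2 difference from the siControl mean was 0.73 in siGAR1 replicate 1, against 0.63 for the 9 SNORD genes of that length. For 17802 genes of 500 nt or more it was 0.00. In siDyskerin replicates 1, 2 and 3 the medians of the 9 SNORD genes of that length were -0.38, -0.04 and -0.31, and those of the 44 other short genes were -0.31, 0.14 and -0.23. Under 100 nt, the 13 SNORD genes had medians of -0.26, -0.05 and -0.49 in siDyskerin libraries and 0.90, 0.28 and -0.25 in siGAR1 libraries. Only 5 other genes of that length were tested, with -0.14, 0.08 and 0.40 in siDyskerin libraries and 0.55, 0.12 and 0.20 in siGAR1 libraries. The part of fragment length in the SNORD values was not tested, so siGAR1 estimates are given with and without replicate 1.

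In the comparison of siDyskerin with siControl, none of the 23 tested members was called by edgeR's quasi-likelihood test, where 0.938% of all genes were called (0.531% called lower). A call needed a log2 fold change beyond 1 in either direction and a p under 0.01 after Benjamini-Hochberg adjustment. At an unadjusted p under 0.05, 0 members were higher and 1 was lower (all genes: 26.1% in either direction), and DESeq2 gave 0 called and 0 at an unadjusted p under 0.05. Estimates were below 0 for 17 members and above 0 for 6 (all genes: 49.4% below 0). The 17 include SNORD22 (ENSG00000278527.1), which passed the filter only with the siControl libraries, a choice that favours an estimate below 0. The median log2 fold change of the 23 was -0.30, with a range of -1.02 to 0.36, beside a median of 0.00 over all 18444 genes tested. Without the filter on low counts the SNORD median was -0.15 over 154 genes, where genes with few reads enter. The 95% interval lay within a log2 fold change of -1 to 1 for 8 members and reached -1 or beyond for 12, so that at this depth a fall of that size could have gone undetected in these 12.

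In the comparison of siGAR1 with siControl, edgeR called 0 of the 23 members (all genes: 0.282%). At an unadjusted p under 0.05, 4 were higher and 0 lower (all genes: 24% in either direction, 11.8% higher), and DESeq2 gave 0 called and 2 at that p. Estimates were above 0 for 21 members and below 0 for 2 (all genes: 51.3% above and 48.7% below 0), with a median log2 fold change of 0.32 and a range of -0.48 to 1.34. Without siGAR1 replicate 1 they were above 0 for 11 and below 0 for 12, the median was -0.04, and 1 member had an unadjusted p under 0.05. The 23 include members that passed the filter only with the siGAR1 libraries, a choice that favours estimates above 0.

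Set directly against each other, siDyskerin and siGAR1 cells differed in the estimates of all 23 tested members, each lower in siDyskerin cells (all genes: 50.6% below 0), with a median log2 fold change of -0.65 and a range of -1.33 to -0.18. None was called by edgeR (all genes: 0.721%), 7 were lower at an unadjusted p under 0.05 (all genes: 25.5% in either direction, 12.4% lower), and DESeq2 called 0 and put 4 at that p. Without siGAR1 replicate 1 the median was -0.28, 19 estimates were below 0 and 4 above, and 0 members had an unadjusted p under 0.05. Members that passed the filter only with the siGAR1 libraries are counted here too, and that choice favours estimates below 0.

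**Figure D2:**
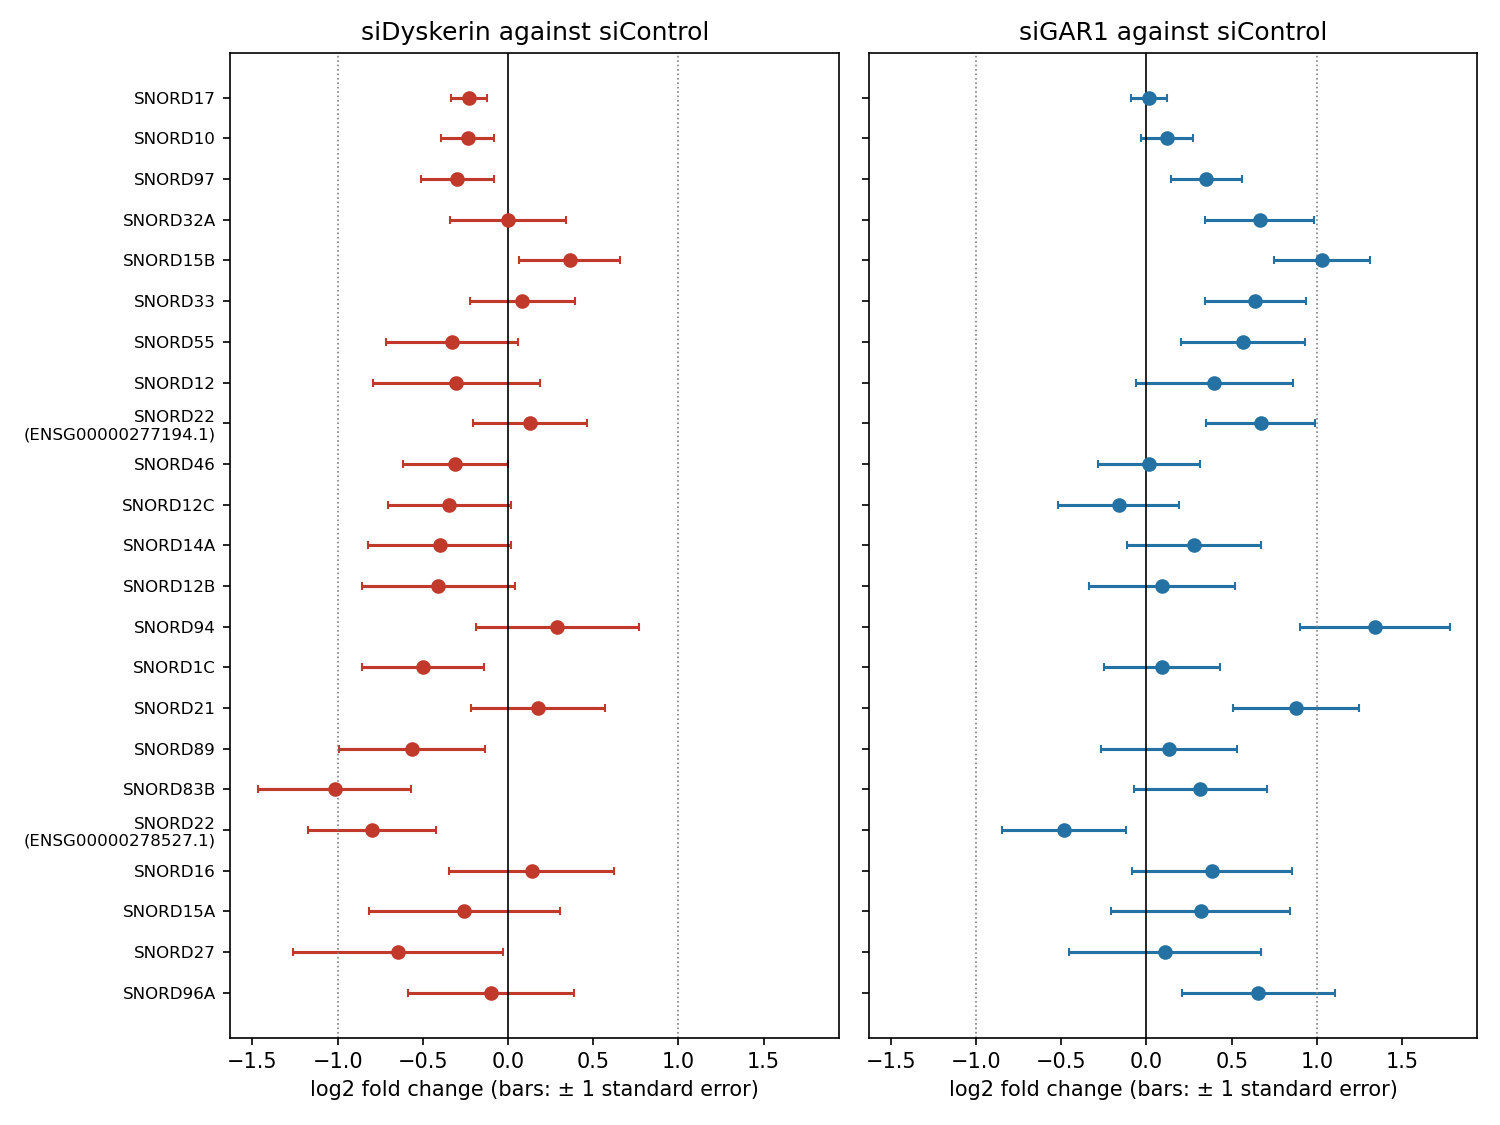
Log2 fold change (circle) with 1 standard error (bar) of each of the 23 tested SNORD genes, in order of mean count, for siDyskerin against siControl (left) and siGAR1 against siControl (right); dotted lines mark -1 and 1. Most siDyskerin estimates lay a little below 0 (median -0.30) and most siGAR1 estimates above it (median 0.32), with bars that lengthened as counts fell.

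**Figure D3:**
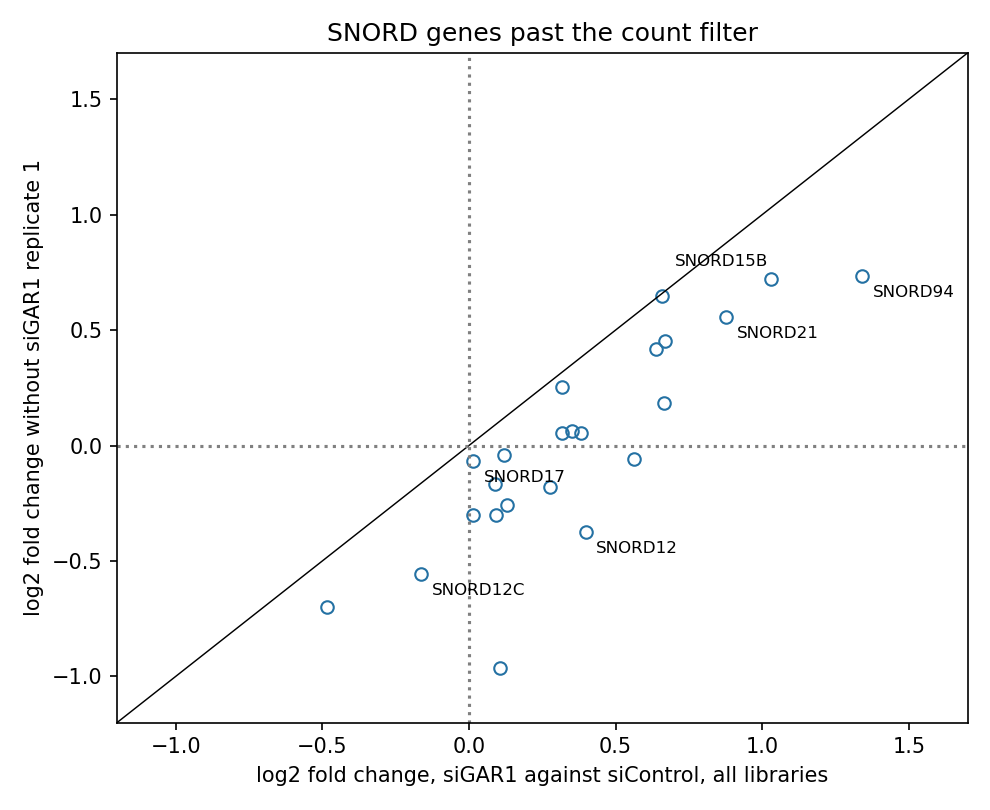
Log2 fold change of siGAR1 against siControl for the 23 tested SNORD genes with all libraries (horizontal) and without siGAR1 replicate 1 (vertical), with the line of equality. All points lay below that line, and the median moved to -0.04 without replicate 1, against 0.32 with all libraries.

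Among the guides of ribosomal RNA methylation, SNORD17, which guides a site in 28S rRNA, had the most reads of any member. It had 338, 376 and 362 normalized counts in siDyskerin libraries, 465, 375 and 433 in siGAR1 libraries, and 415, 422 and 422 in siControl libraries. All siDyskerin libraries lay below all siControl libraries, while siGAR1 libraries lay on both sides of them. The log2 fold change was -0.23 ± 0.11 (SE) after siDyskerin (95% interval -0.46 to 0.00, edgeR adjusted p = 0.195) and 0.02 ± 0.11 after siGAR1 (-0.21 to 0.24, adjusted p = 0.950). SNORD17 overlaps no exon of another transcript, and its narrow intervals make it the most precisely measured member. Its siGAR1 estimate was -0.07 without siGAR1 replicate 1.

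SNORD15B, a 28S guide, came closest to a call. It had 41.8, 37.6 and 33.9 normalized counts in siDyskerin libraries, 82.0, 62.6 and 34.5 in siGAR1 libraries, and 26.3, 33.2 and 29.5 in siControl libraries. Both knockdown groups lay above the siControl libraries without overlap, but by little. Replicate 3 of siDyskerin, at 33.9, and of siGAR1, at 34.5, were just above the highest siControl library, at 33.2. The log2 fold change was 0.36 ± 0.29 after siDyskerin (adjusted p = 0.493) and 1.03 ± 0.28 after siGAR1 (95% interval 0.42 to 1.63, edgeR adjusted p = 0.0372), which missed the threshold on p. Without siGAR1 replicate 1 it was 0.72 (adjusted p = 0.186), and without siGAR1 replicate 3 it was called, at 1.28. Its neighbour in RPS3, SNORD15A, had 0.9, 9.6 and 11.3 normalized counts in siDyskerin libraries, 11.2, 8.1 and 12.3 in siGAR1 libraries, and 8.5, 8.1 and 8.6 in siControl libraries, with overlapping groups and an estimate of 0.32 ± 0.52 after siGAR1, and 0.26 without replicate 1.

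SNORD32A and SNORD33 lie in different introns of RPL13A, and guide sites in 18S rRNA, and for SNORD32A also in 28S rRNA. SNORD32A had 32.3, 52.5 and 26.9 normalized counts in siDyskerin libraries, 92.3, 48.5 and 38.2 in siGAR1 libraries, and 40.2, 35.9 and 38.1 in siControl libraries. SNORD33 had 25.6, 42.0 and 21.2 in siDyskerin libraries, 55.9, 45.5 and 30.8 in siGAR1 libraries, and 30.1, 31.4 and 23.3 in siControl libraries. For both, siDyskerin replicate 2 and siGAR1 replicate 1 were the highest of their groups, and the groups overlapped. The siGAR1 log2 fold changes were 0.66 ± 0.32 for SNORD32A (edgeR adjusted p = 0.224) and 0.64 ± 0.30 for SNORD33 (unadjusted p = 0.0485, adjusted p = 0.205). They were 0.19 and 0.42 without siGAR1 replicate 1.

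SNORD55 and SNORD46 are 28S guides. SNORD55 had 22.8, 32.4 and 15.6 normalized counts in siDyskerin libraries, 74.6, 29.3 and 29.6 in siGAR1 libraries, and 26.3, 35.9 and 29.5 in siControl libraries. Only siGAR1 replicate 1 lay outside the spread of the siControl libraries on the high side. The siGAR1 estimate of SNORD55 was 0.56 ± 0.36, and -0.06 without that replicate. SNORD46 averaged 17.9 ± 3.50 normalized counts in siDyskerin, 22.4 ± 7.30 in siGAR1 and 22.5 ± 1.42 in siControl libraries (SD, n = 3 each), and its estimates were -0.31 ± 0.31 after siDyskerin and 0.02 ± 0.30 after siGAR1, or -0.30 without replicate 1.

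The ZFAS1 trio of related sequences had overlapping groups throughout. SNORD12, a 28S guide, had 17.1, 27.1 and 19.8 normalized counts in siDyskerin libraries, 62.5, 31.3 and 8.6 in siGAR1 libraries, and 22.4, 29.6 and 28.2 in siControl libraries. The siGAR1 libraries held both the highest and the lowest of these 9 values, and the siGAR1 estimate was 0.40 ± 0.46 with all libraries and -0.38 without replicate 1. SNORD12C averaged 17.99 ± 5.92 normalized counts in siDyskerin, 19.8 ± 8.40 in siGAR1 and 22.8 ± 3.62 in siControl libraries. SNORD12B averaged 12.95 ± 5.43 in siDyskerin, 18.5 ± 7.63 in siGAR1 and 17.2 ± 9.20 in siControl libraries. Their siGAR1 estimates were -0.16 ± 0.35 and 0.09 ± 0.43, and -0.56 and -0.30 without replicate 1.

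Of the remaining rRNA guides, SNORD21, a 28S guide in RPL5, had 14.2, 9.6 and 9.9 normalized counts in siDyskerin libraries, 25.2, 17.2 and 12.3 in siGAR1 libraries, and 7.7, 11.7 and 11.05 in siControl libraries. All siGAR1 libraries lay above the siControl libraries, with a log2 fold change of 0.88 ± 0.37 (edgeR unadjusted p = 0.0325, adjusted p = 0.161), and 0.56 without replicate 1. SNORD96A, a 5.8S guide in RACK1, had 4.7, 7.9 and 7.1 in siDyskerin libraries, 11.2, 11.1 and 11.1 in siGAR1 libraries, and 7.0, 10.8 and 2.5 in siControl libraries. Its siGAR1 libraries lay above both other groups, on few reads, and the estimate against siControl was 0.66 ± 0.45 (edgeR adjusted p = 0.406), and 0.65 without replicate 1.

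SNORD1C (a 28S guide in SNHG16), SNORD14A (U14, in RPS13, needed for processing of the 18S precursor), SNORD16 (18S, in RPL4) and SNORD27 (18S, in SNHG1) had overlapping groups in all 3 comparisons. Their siDyskerin estimates were -0.50 ± 0.36, -0.40 ± 0.42, 0.14 ± 0.48 and -0.65 ± 0.62. Their siGAR1 estimates were 0.09 ± 0.34, 0.28 ± 0.39, 0.38 ± 0.47 and 0.11 ± 0.56. SNORD27 had 20.5, 7.1 and 2.5 normalized counts in the siGAR1 libraries, against 11.6, 11.7 and 4.9 in siControl libraries, and its siGAR1 estimate was -0.96 without replicate 1. For the others it was then -0.17 for SNORD1C, -0.18 for SNORD14A and 0.05 for SNORD16.

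Among the guides to other RNAs, SNORD10, which guides methylation of U6 snRNA, had 119.7, 142.7 and 121.6 normalized counts in siDyskerin libraries, 195.8, 148.5 and 146.7 in siGAR1 libraries, and 156.8, 139.0 and 158.4 in siControl libraries. The siDyskerin libraries overlapped the siControl libraries and lay below all siGAR1 libraries. Its log2 fold change was -0.24 ± 0.16 after siDyskerin (95% interval -0.57 to 0.10), 0.12 ± 0.15 after siGAR1 (-0.21 to 0.45), and -0.35 ± 0.16 between siDyskerin and siGAR1 (edgeR adjusted p = 0.169). Without siGAR1 replicate 1 the siGAR1 estimate was -0.04 and the direct one -0.20.

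SNORD97, a guide to the elongator methionine tRNA, had 79.8, 106.8 and 89.1 normalized counts in siDyskerin libraries, 193, 132 and 105 in siGAR1 libraries, and 105.8, 106.7 and 128.9 in siControl libraries. The siGAR1 group had the widest spread, with replicate 3 below every siControl library and replicates 1 and 2 above. The direct siDyskerin to siGAR1 estimate, -0.65 ± 0.21, had an unadjusted p of 0.00911 and an edgeR adjusted p of 0.0650, and was -0.37 without siGAR1 replicate 1. The siDyskerin to siControl estimate was -0.30 ± 0.22.

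SNORD94, the other U6 guide tested, had the highest siGAR1 estimate of the 23. It had 10.4, 14.9 and 11.3 normalized counts in siDyskerin libraries, 41.9, 12.1 and 22.2 in siGAR1 libraries, and 12.4, 10.8 and 6.1 in siControl libraries. siGAR1 replicate 2 lay within the siControl range and replicate 1 lay far above it. The log2 fold change after siGAR1 was 1.34 ± 0.44 (95% interval 0.40 to 2.28, edgeR adjusted p = 0.0749), and 0.74 without replicate 1 (unadjusted p = 0.121). After siDyskerin it was 0.29 ± 0.48.

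**Figure D4:**
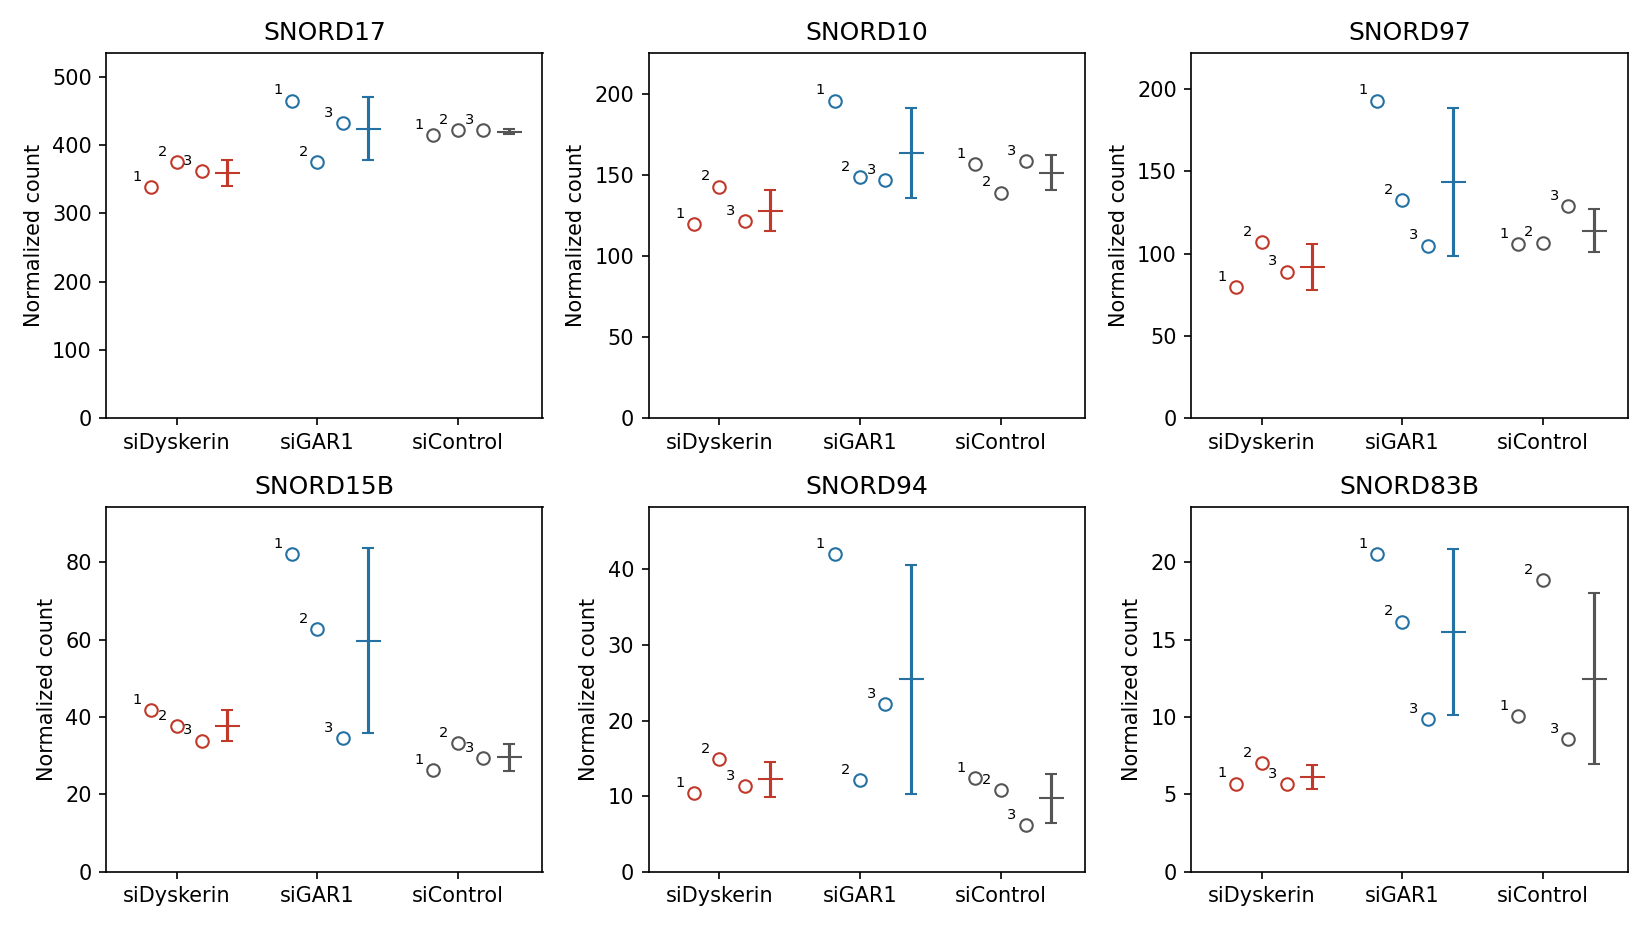
Normalized counts of SNORD17, SNORD10, SNORD97, SNORD15B, SNORD94 and SNORD83B in each library (circles with replicate numbers) with the mean and SD of the 3 libraries of a group. siGAR1 replicate 1 was the highest library for each of these 6 genes, and SNORD83B was lowest in the siDyskerin libraries, at 5.7 to 7.0.

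Among the members with no known methylation target were the lowest and the next lowest siDyskerin estimates. SNORD83B had 5.7, 7.0 and 5.7 normalized counts in siDyskerin libraries (6, 8 and 4 reads), 20.5, 16.2 and 9.9 in siGAR1 libraries, and 10.0, 18.8 and 8.6 in siControl libraries (13, 21 and 7 reads). The siDyskerin libraries lay below all others. SNORD83B passed the count filter only with the siGAR1 libraries counted. The log2 fold change was -1.02 ± 0.45 against siControl (95% interval -1.98 to -0.05, unadjusted p = 0.0399, edgeR adjusted p = 0.165) and -1.33 ± 0.44 against siGAR1 (adjusted p = 0.0653), or -1.08 without siGAR1 replicate 1.

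Of the pair of genes that carry the symbol SNORD22 in SNHG1, ENSG00000278527.1 had 5.7, 8.8 and 7.1 normalized counts in siDyskerin libraries, 11.2, 8.1 and 7.4 in siGAR1 libraries, and 13.9, 12.6 and 11.05 in siControl libraries. Its siDyskerin libraries lay below all siControl libraries, and the estimates were -0.80 ± 0.37 after siDyskerin (edgeR adjusted p = 0.196) and -0.48 ± 0.36 after siGAR1. This gene passed the count filter only with the siControl libraries counted, a choice that favours estimates below 0 against siControl. The other, ENSG00000277194.1, had 15.2, 24.5 and 19.8 in siDyskerin libraries, 36.4, 24.2 and 25.9 in siGAR1 libraries, and 22.4, 19.7 and 11.05 in siControl libraries. Its siGAR1 libraries lay above the siControl libraries, and its estimates were 0.13 ± 0.34 after siDyskerin and 0.67 ± 0.32 after siGAR1 (adjusted p = 0.222). Without siGAR1 replicate 1 the siGAR1 estimates were -0.70 for ENSG00000278527.1 and 0.45 for ENSG00000277194.1. SNORD89, in RNF149, averaged 8.08 ± 3.36 normalized counts in siDyskerin, 13.5 ± 5.28 in siGAR1 and 12.7 ± 3.06 in siControl libraries, with an estimate of -0.56 ± 0.43 after siDyskerin and 0.13 ± 0.40 after siGAR1, or -0.26 without replicate 1.

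Groups without overlap between the libraries were counted among the 23 tested members and among all genes. In siDyskerin against siControl there was 1 higher member, SNORD15B, and 3 lower ones, SNORD17, SNORD83B and SNORD22 (ENSG00000278527.1), where 16% of all genes were higher and 15.5% lower without overlap. In siGAR1 against siControl there were 4 higher members (17.4%), SNORD15B, SNORD22 (ENSG00000277194.1), SNORD21 and SNORD96A, and 0 lower ones (all genes: 13.6% and 14.1%). In siDyskerin against siGAR1 there were 0 higher and 3 lower members, SNORD10, SNORD83B and SNORD96A (all genes: 15.1% and 14.6%). SNORD83B and SNORD96A are among the members that passed the count filter only with the siGAR1 libraries, where their mean counts were highest. SNORD22 (ENSG00000278527.1) passed the filter only with the siControl libraries, where its mean count was highest.

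Levels between members were compared per length, as the deposited TPM values, which are a transcript's reads divided by its effective length and scaled to the library. Since a read counts in each transcript it fits, these values are no exclusive shares of a library. In siControl libraries SNORD17 had 60.4 ± 1.16 TPM, SNORD10 53.6 ± 3.95, SNORD97 40.3 ± 4.95, SNORD32A 36.7 ± 2.28 and SNORD55 33.0 ± 5.42 (SD, n = 3). The spreads of SNORD97, SNORD32A and SNORD55 overlapped. The lowest tested member was SNORD15A, at 2.74 ± 0.109 TPM. A transcript of 100 nt had an effective length of only 22 to 23 nt in these libraries, so that TPM values of members this short depend strongly on the modelled fragment length.

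The imprinted clusters, whose members have no known ribosomal target, had few reads or none. The 9 SNORD113 and 30 SNORD114 genes had 0 reads in all 9 libraries, which allows up to 3 reads, or 0.00495 RPM. The 50 SNORD115 genes had 1 read. The 33 SNORD116 genes, which like SNORD115 come mostly from the SNHG14 transcript of the Prader-Willi region, had 13, 20 and 5 reads in siDyskerin libraries, 24, 13 and 8 in siGAR1 libraries, and 28, 14 and 10 in siControl libraries. None of these passed the count filter. Limits of this kind cover counting error only.

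Host estimates spanned a narrower range than those of the members that they carry. None of the 16 hosts was called by edgeR or DESeq2 in any comparison, and 4, 5 and 4 hosts had an unadjusted edgeR p under 0.05 in siDyskerin against siControl, siGAR1 against siControl and siDyskerin against siGAR1 (all genes: 26.1%, 24% and 25.5%). Their log2 fold changes were -0.24 to 0.45 after siDyskerin (median -0.03), -0.18 to 0.32 after siGAR1 (median 0.07), and -0.34 to 0.13 between siDyskerin and siGAR1. At an edgeR adjusted p under 0.01 without a limit on the fold, RNF149, a ubiquitin ligase gene, was higher after siDyskerin (0.45 ± 0.08) and RPL3 was lower (-0.24 ± 0.05), where 6.4% of all genes were past that threshold. After siGAR1 RNF149 was at 0.32 (adjusted p = 0.0207) and RPL3 at -0.18 (adjusted p = 0.0560), and the siGAR1 and siControl libraries of both genes did not overlap. Between siDyskerin and siGAR1, SNX5, which encodes a sorting nexin, was lower in siDyskerin cells (-0.33), as was SNHG1 (-0.34), where 5.39% of all genes were past it. With transcripts that have an exon overlapping a SNORD left out of the host sums, a choice made after the data were seen, SNHG1 was at -0.32 with an edgeR adjusted p of 0.0146, past that threshold no longer.

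Set beside its host, the estimate of the member was the lower for 16 of 23 after siDyskerin and the higher for 18 of 23 after siGAR1, but for 11 of 23 after siGAR1 without replicate 1. SNORD17 and SNX5 had nearly the same estimate after siDyskerin, -0.23 and -0.21. SNORD83B was at -1.02 and RPL3 at -0.24, and SNORD89 was at -0.56 while RNF149 was at 0.45. After siGAR1, SNORD15B was at 1.03 and RPS3 at 0.03, and SNORD94 at 1.34 and PTCD3 at 0.15. The differences between members and hosts were not tested, and the standard errors of the members (median 0.39 after siDyskerin) were far above those of hosts such as RPL3 (0.05).

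**Figure D5:**
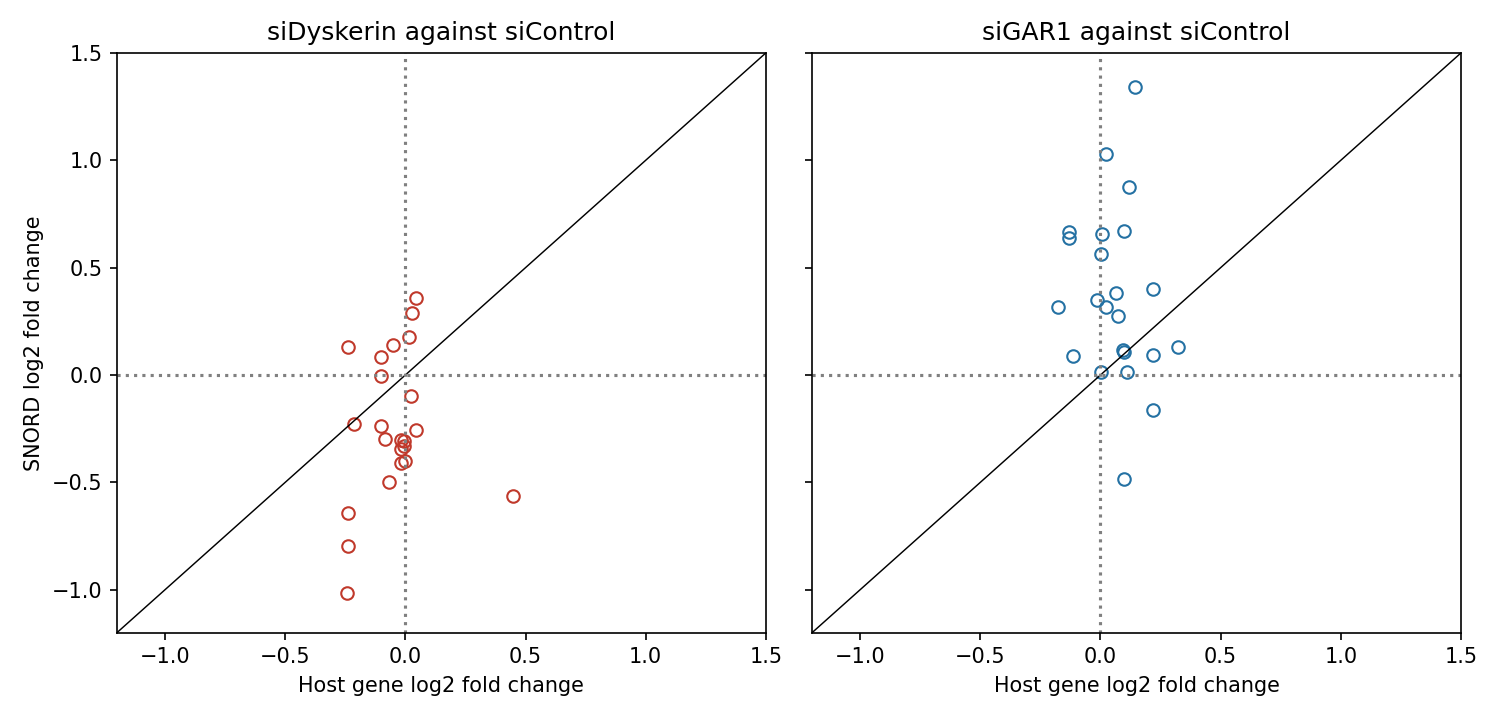
Log2 fold change of each of the 23 tested SNORD genes (vertical) against that of its host gene (horizontal), for siDyskerin against siControl (left) and siGAR1 against siControl (right), with the line of equality. Hosts stayed between -0.24 and 0.45 in both, while members spread from -1.02 to 1.34.

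Genes for the proteins that hold, assemble and trim box C/D particles were examined as well. Of the 4 core proteins, none was past an edgeR or DESeq2 adjusted p of 0.01 in either knockdown, and 1 in each had an unadjusted edgeR p under 0.05 (all genes: 26.1% after siDyskerin and 24% after siGAR1). The log2 fold changes after siDyskerin were -0.05 for FBL (fibrillarin, the methyltransferase), -0.13 for NOP56, 0.14 for NOP58 and 0.04 for SNU13, and after siGAR1 they were 0.04, -0.01, 0.25 and 0.04. Of 13 assembly and transport factors tested, 2 were lower at that threshold after siDyskerin and 0 were past it after siGAR1 (all genes past it by edgeR: 6.4% after siDyskerin and 3.42% after siGAR1). After siGAR1, 4 had an unadjusted edgeR p under 0.05 (all genes: 24%). DESeq2 put 1 past the adjusted threshold there, where it put 1371 of all 18444 genes past it. The 2 lower after siDyskerin were PIH1D1 and RUVBL1, parts of the R2TP chaperone complex, which also acts in the assembly of other large complexes, H/ACA particles included. RUVBL2 and RPAP3, also parts of R2TP, did not pass, at -0.22 (edgeR adjusted p = 0.0855) and 0.05 (adjusted p = 0.834) after siDyskerin. PIH1D1 averaged 4131 ± 347 normalized counts in siDyskerin and 6005 ± 51.5 in siControl libraries (log2 fold change -0.54), and RUVBL1 4752 ± 231 in siDyskerin and 5905 ± 408 in siControl libraries (-0.31). After siGAR1 PIH1D1 was at -0.39 (adjusted p = 0.0146), also without overlap with siControl, and RUVBL1 at -0.11 (adjusted p = 0.353).

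Of 11 genes for 3′ end trimming, intron debranching and decay of the flanks, XRN1, a 5′ to 3′ exonuclease, was higher after siDyskerin at an edgeR adjusted p under 0.01 (log2 fold change 0.59). TOE1, a 3′ exonuclease that trims small nuclear RNAs, was lower at that threshold (-0.42, all genes past it: 6.4%). None was past it by edgeR after siGAR1 (all genes: 3.42%), where 4 had an unadjusted edgeR p under 0.05 (all genes: 24%). DESeq2 put 1 past the adjusted threshold there, where it put 1371 of all 18444 genes past it. After siGAR1 XRN1 was at 0.38 (adjusted p = 0.0232) and TOE1 at -0.20 (adjusted p = 0.0778), and the siGAR1 and siControl libraries of both genes did not overlap (all genes: 13.6% higher and 14.1% lower without overlap). DBR1, the debranching enzyme that opens the intron lariat, was at 0.02 after siDyskerin and 0.03 after siGAR1. None of these genes had a log2 fold change past 1 in either direction.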

How the data were processed

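RNA-seq libraries were made from nuclear RNA of U2OS cells, 3 per siRNA. Per the submitters' notes and methods, the authors used FastQC 0.11.9, Trim Galore 0.6.4, Bowtie2 2.4.1 (removal of rRNA and tRNA reads), STAR 2.7.0e, Picard and Salmon 1.2.0 with GENCODE 27 on GRCh38. The tables that the authors deposited have Salmon's columns of estimated counts and TPM per transcript. Their counts are almost all whole numbers, with a read counted in each transcript it fits, and how this arose is not given in the sources used here. Gene sums are therefore multiples of read pairs. The authors tested lengthScaledTPM counts with DESeq2.

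Here 195887 of 200401 transcripts were matched to GENCODE 44, and estimated counts were rounded and summed per gene. edgeR 4.0.16 (R 4.3.3, limma 3.58.1) was fitted to all 9 libraries without covariates: TMM factors, filterByExpr with a minimum count of 10, the robust quasi-likelihood F-test, and Benjamini-Hochberg adjustment over 18444 genes. Calls needed an adjusted p under 0.01, as in the study's methods, and an absolute log2 fold change above 1. Normalized counts were brought to the mean effective library size, and standard errors come from the fit. The mean fragment length is the transcript length minus Salmon's effective length. DESeq2 1.42.0, RLE factors, lengthScaledTPM counts, other filters, a fit of the compared groups alone, a replicate block, members free of overlapping exons and each library left out were alternatives. The edgeR step was tested on simulated data. Python 3.11.15, numpy 2.4.6, pandas 2.3.3 and matplotlib 3.10.9 were used for tables and plots.

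Members named are the 10 with the highest mean count, the 5 highest and 5 lowest estimates of each comparison, and those with an unadjusted p under 0.05. SNORD12B, SNORD14A and SNORD15A were added after their values were seen. The sequence of 1 member and the name of 1 host gene are not reported here. Members and gene lists were chosen with earlier results of these data known.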

Additional observations from a re-analysis of the deposited data

How the results depend on the processing

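No tested SNORD gene and no host was called in any comparison with RLE factors, DESeq2, lengthScaledTPM counts, a minimum count of 3 or a fit of the compared groups alone. Without a filter on low counts, or without siGAR1 replicate 3, 1 SNORD gene (SNORD15B) was called after siGAR1, so that leaving out 1 library gave 0 to 1 calls there. The median log2 fold change after siDyskerin was -0.30, and -0.15 over 154 genes without the filter, where genes with few reads enter.

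Counts at an unadjusted p under 0.05 moved more. For siDyskerin against siControl (1 gene) they were 0 with DESeq2, 2 with lengthScaledTPM counts, 0 among the 7 genes with no overlapping exon, and 0 to 2 with 1 library left out. For siGAR1 against siControl (4 genes) they were 2 with DESeq2, 2 among those 7 and 1 to 7 with 1 library left out. For siDyskerin against siGAR1 (7 genes) they were 4 with DESeq2, 3 among those 7 and 0 to 11 with 1 library left out. The lowest counts for both siGAR1 comparisons came without siGAR1 replicate 1 and the highest without siGAR1 replicate 3. The cause was not tested.

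Over all tested genes, same-numbered libraries had correlations of only -0.07 to 0.10 in their deviations from the group means, over 0.1 in 1 of 9 pairs. Replicate 3 had the fewest reads and the longest fragments of each group, at 149 nt in siControl, 147 nt in siDyskerin and 147 nt in siGAR1. Whether short RNAs alone followed the replicate number was not tested. With a replicate block, 0 SNORD genes were called in any comparison, 1, 4 and 8 had an unadjusted p under 0.05, and the medians were -0.31, 0.30 and -0.63 (siDyskerin against siControl, siGAR1 against siControl, siDyskerin against siGAR1). Of 954 estimates of the 20 members named by rule, 24 moved by more than 1 standard error, 18 of them without siGAR1 replicate 1. Depth limits all of this, since 14 of the 23 tested members had under 200 reads over all libraries.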
